A study of Mus musculus with 14 samples.

Results

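The genes described here are 186 of 22048 protein-coding genes in a table of RNA sequencing counts from mouse CD4+ T cells. They stood at low levels in interferon-gamma producers cultured with an inactive control compound and higher in producers cultured with an inhibitor of the histone methyltransferase DOT1L. A gene was taken as a member when 3 conditions on its level in CPM (counts scaled to a library total of 1e+06) were met. Its mean was under 2 CPM in the YFPpos SGC0649 libraries, each YFPpos SGC0946 library had at least 1 CPM, and the lowest of these had at least 2 times the highest YFPpos SGC0649 library. Another 24 genes met these conditions and were left out by name, as members of families such as interleukins, chemokines, histones, granzymes and zinc finger proteins. The members were chosen by these YFPpos CPM values, so the YFPpos difference is a description here and carries no test. At these depths a level of 1 CPM stands for 14.5 to 31.6 reads, and no member was at 0 counts in all YFPpos SGC0649 libraries.

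All cells came from spleen and peripheral lymph nodes of reporter mice on the C57BL/6 background, in which a yellow fluorescent protein (YFP) reports interferon-gamma. The sources give no ages. Enriched CD4+ T cells, which were not sorted as naive at the start, spent 4 days in Th1 culture, with 1 µM of a compound, and were then sorted by the reporter. The culture held antibodies to CD28 and CD3 on the plate, each at 1 µg/ml, IL-12 and IL-2, each at 10 ng/ml, and an antibody to IL-4 at 10 µg/ml. The groups were YFPpos SGC0946 (n = 3), YFPpos SGC0649 (n = 3), YFPneg SGC0946 (n = 3), YFPneg SGC0649 (n = 2) and uncultured naive cells sorted as CD4+ CD44- CD62L+ (n = 3). SGC0946 is the DOT1L inhibitor and SGC0649 its inactive control compound; a culture without either compound and YFPneg SGC0649 library 3 were not analysed here. The study calls the libraries biological replicates, and the labels do not say whether YFPpos and YFPneg libraries of the same number shared a culture.

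DOT1L places methyl groups on lysine 79 of histone H3, a residue in the core of the nucleosome, and is the enzyme known for this mark in mammals. The mark lies over the bodies of transcribed genes and is best known from leukaemias with MLL fusion proteins, which carry DOT1L to genes that then stay transcribed. SGC0946 occupies the pocket of the methyl donor in the enzyme.

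Starts of 136 members were found by symbol in a RefSeq promoter table (GRCm38.p6), and the outermost start of each gene was used. In the 250 bases before the start, the members had a median of 11 CpG dinucleotides, against 16 for 9413 genes tested and 6 for all 27025 genes in the table. Under 5 CpG were present in 19.9% of the members, 11.5% of genes tested and 44.5% of the table. The hexamer TATAAA, read on both strands, was present in 5.88% of the members, 5.92% of genes tested and 13.0% of the table. The palindrome CACGTG was present in 5.88% of the members, 8.5% of genes tested and 6.04% of the table. The windows printed here belong to members whose values are described next, chosen to span naive-silent and naive-expressed genes and rich and poor CpG content; capitals mark CpG dinucleotides, and none of the 8 windows held TATAAA or CACGTG.
Mycn (chr12:12941837-12942086, minus strand, 11 CpG): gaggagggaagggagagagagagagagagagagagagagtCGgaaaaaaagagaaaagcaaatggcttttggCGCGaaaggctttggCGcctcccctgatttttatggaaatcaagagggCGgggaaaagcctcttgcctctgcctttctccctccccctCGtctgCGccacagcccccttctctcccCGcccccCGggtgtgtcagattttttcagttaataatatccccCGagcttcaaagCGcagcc
Wnt10b (chr15:98778151-98778400, minus strand, 14 CpG): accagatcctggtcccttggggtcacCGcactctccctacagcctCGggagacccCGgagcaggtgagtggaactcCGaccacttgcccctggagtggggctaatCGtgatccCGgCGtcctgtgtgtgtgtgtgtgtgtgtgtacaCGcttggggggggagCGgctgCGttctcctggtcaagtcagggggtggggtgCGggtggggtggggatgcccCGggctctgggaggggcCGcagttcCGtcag
Esm1 (chr13:113209409-113209658, plus strand, 3 CpG): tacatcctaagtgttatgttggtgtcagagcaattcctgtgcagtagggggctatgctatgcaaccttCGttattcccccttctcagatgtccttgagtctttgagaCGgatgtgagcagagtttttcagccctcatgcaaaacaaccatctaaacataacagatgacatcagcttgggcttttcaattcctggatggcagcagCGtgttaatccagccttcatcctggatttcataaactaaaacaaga
Lmtk3 (chr7:45783657-45783906, plus strand, 14 CpG): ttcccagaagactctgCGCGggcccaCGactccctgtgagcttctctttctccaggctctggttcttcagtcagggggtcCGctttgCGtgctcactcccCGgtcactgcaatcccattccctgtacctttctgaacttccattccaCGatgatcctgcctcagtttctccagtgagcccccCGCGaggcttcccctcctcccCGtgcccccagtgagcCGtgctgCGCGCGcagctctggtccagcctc
Jup (chr11:100397791-100398040, minus strand, 13 CpG): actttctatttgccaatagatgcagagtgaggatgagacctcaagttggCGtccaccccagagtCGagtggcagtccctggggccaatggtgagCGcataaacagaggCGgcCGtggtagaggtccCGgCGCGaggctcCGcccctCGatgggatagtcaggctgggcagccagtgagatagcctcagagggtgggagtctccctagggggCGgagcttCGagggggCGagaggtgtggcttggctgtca
Arhgef40 (chr14:51984583-51984832, plus strand, 22 CpG): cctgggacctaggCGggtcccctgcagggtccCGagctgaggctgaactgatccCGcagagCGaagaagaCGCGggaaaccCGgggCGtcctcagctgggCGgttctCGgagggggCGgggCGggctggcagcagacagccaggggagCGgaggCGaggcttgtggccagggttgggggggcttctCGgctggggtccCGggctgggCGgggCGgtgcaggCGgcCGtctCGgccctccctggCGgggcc
Pltp (chr2:164857709-164857958, minus strand, 9 CpG): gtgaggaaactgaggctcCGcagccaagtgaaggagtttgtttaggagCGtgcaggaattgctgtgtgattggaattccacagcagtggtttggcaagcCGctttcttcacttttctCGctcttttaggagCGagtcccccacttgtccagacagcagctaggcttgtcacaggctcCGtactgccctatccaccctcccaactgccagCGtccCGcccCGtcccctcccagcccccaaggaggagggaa
Trim6 (chr7:104218545-104218794, plus strand, 6 CpG): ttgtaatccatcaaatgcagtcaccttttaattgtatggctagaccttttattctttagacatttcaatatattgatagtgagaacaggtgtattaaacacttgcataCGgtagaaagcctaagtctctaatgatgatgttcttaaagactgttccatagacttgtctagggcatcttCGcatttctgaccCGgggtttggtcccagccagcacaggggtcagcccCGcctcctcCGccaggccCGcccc

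Library totals gave the reads per CPM stated above. Dot1l itself had 175, 187 and 184 CPM in YFPpos SGC0946 and 215, 223 and 231 CPM in YFPpos SGC0649 libraries (log2 fold change -0.32, SE 0.07, adjusted p 0.002). SGC0946 blocks the enzyme, so the level of its mRNA does not check the labels. Ifng, the gene behind the reporter, had 545 to 724 CPM in YFPpos SGC0946 and 618 to 934 CPM in YFPpos SGC0649 libraries. It had 114, 55.4 and 30.9 CPM in YFPneg SGC0946 libraries 1 to 3, 42.2 and 25.8 CPM in YFPneg SGC0649 libraries and at most 0.178 CPM in naive libraries. YFPpos SGC0946 library 2 stood apart in unmapped reads, 3.61% against 6.44% to 8.35% in the other YFPpos libraries. Of 6 CD4 T cell markers 5 were in the table, and together they summed to 2610 to 2690 CPM in YFPpos SGC0946, 2260 to 2540 CPM in YFPpos SGC0649, 2540 to 2570 CPM in YFPneg SGC0946, 2350 to 2400 CPM in YFPneg SGC0649 and 3060 to 3120 CPM in naive libraries.

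The members' levels followed the way they were chosen. The median member had 2.84 CPM in YFPpos SGC0946, 0.698 CPM in YFPpos SGC0649, 1.01 CPM in YFPneg SGC0946, 0.412 CPM in YFPneg SGC0649 and 0.0968 CPM in naive cells, while the median of 12343 genes tested was 28.7 to 32.7 CPM in every group. CPM is not corrected for gene length, so levels are compared within a gene. In YFPpos cells the rule set the direction of all 186 members, 164 passed the test there against 12.1% of genes tested that were called higher, and nothing is read from that count. That 12.1% (1490 genes, beside 1934 lower) is itself tied to scaling, since DESeq2 size factors gave 1702 higher and 1388 lower. The lowest SGC0946 library was 2.01 times the highest SGC0649 library for Rap1gap2, 2.01 times for Fhdc1 and 2.02 times for Tspan2, just inside the limit. Just outside stood Bcl6b (1.99 times), Soga1 (1.99 times) and P2ry12 (1.99 times), and the largest values were those of Ehd2 (7.76 times), Mycn (6.74 times) and Onecut2 (6.2 times).

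**Figure D1:**
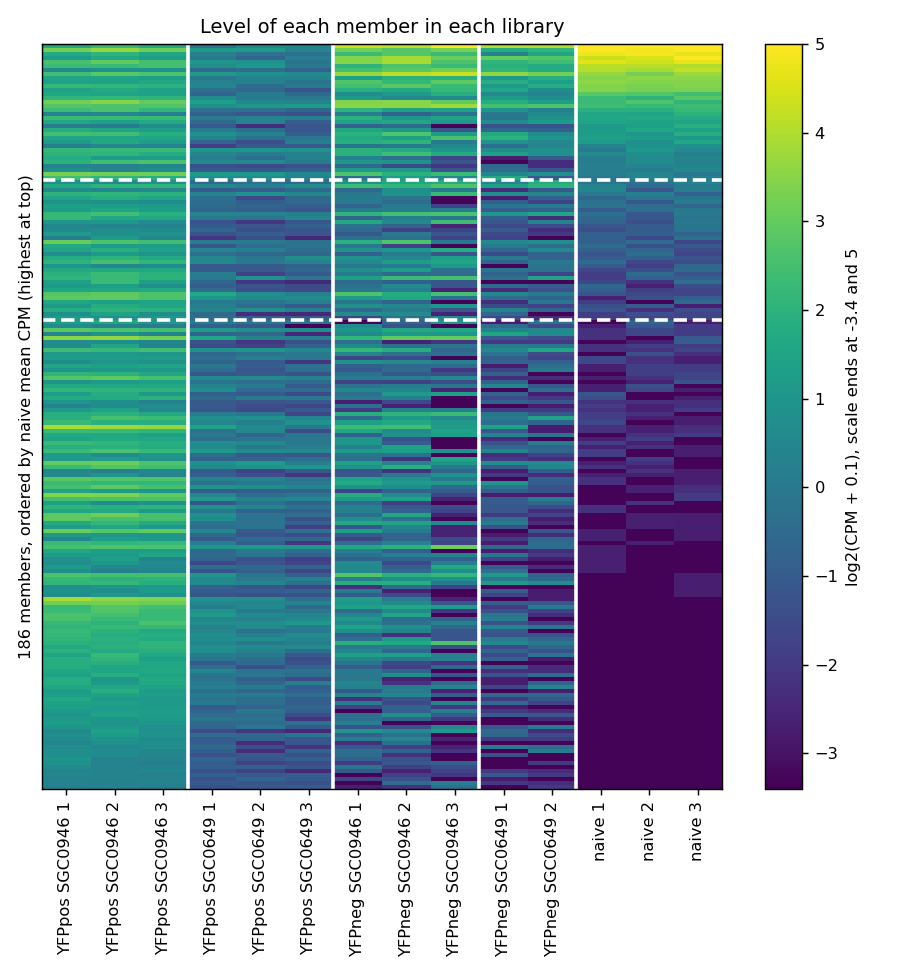
Each row is 1 of the 186 members, ordered by mean naive CPM with the highest at the top, and each column is a library. Colour gives log2(CPM + 0.1), with the ends of the colour scale set by the colour bar. White dashed lines part the 34 members expressed in naive cells (at least 1 CPM), the 35 near-silent and the 117 silent ones (under 0.2 CPM). The naive columns run from the brightest cells of the plot at the top to 48 members with no count at the bottom, and YFPneg SGC0946 library 3 has 30 members with no count.

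The 12 members with most CPM in YFPpos SGC0946 cells included 2 transcription factor genes known from development, Onecut2 and Mycn. Onecut2 encodes a homeodomain factor of liver and neural development (chromosome 18, 64340020 to 64400987, GRCm38 as for all positions here). Onecut2 had 14.7, 11.5 and 10.6 CPM in YFPpos SGC0946, 1.71, 1.6 and 0.696 CPM in YFPpos SGC0649, 2.35, 0.998 and 0.069 CPM in YFPneg SGC0946 and 0 and 0.0521 CPM in YFPneg SGC0649 libraries, and no count in naive libraries. Mycn, the MYC-family oncogene of neuroblastoma (chromosome 12, 12936093 to 12941914), had 9.04, 9.19 and 8.57 CPM in YFPpos SGC0946, 1.27, 1.26 and 1.18 CPM in YFPpos SGC0649, 1.93, 1.37 and 0.345 CPM in YFPneg SGC0946, 0.457 and 0.364 CPM in YFPneg SGC0649 and 0 in all naive libraries. For both genes every YFPpos SGC0946 library lay above every YFPneg library, and YFPneg SGC0946 library 3 was the lowest of its group, for Mycn below both YFPneg SGC0649 libraries. In YFPneg cells Onecut2 was 48.2-fold higher with SGC0946, on 61 counts against 1 (95% counting interval 8.33 to 1935; adjusted p 0.027), a call lost without either SGC0649 library (adjusted p 0.13 without library 1 and 0.11 without library 2). It was also lost without SGC0946 library 1 (0.069), with limma-voom (0.14) and in a fit of the compared groups alone (0.18). Mycn had a log2 fold change of 1.59 (SE 0.55, adjusted p 0.085), and passed the test without SGC0946 library 3 (adjusted p 0.004) and with the DESeq2 Wald test (0.039).

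Wnt10b, a secreted Wnt ligand (chromosome 15, 98770712 to 98778150), had 7.85, 8.33 and 6.14 CPM in YFPpos SGC0946, 1.75, 2.23 and 1.04 CPM in YFPpos SGC0649, 2.57, 1.18 and 1.93 CPM in YFPneg SGC0946, 1.63 and 1.41 CPM in YFPneg SGC0649 and 0.058, 0.119 and 0 CPM in naive libraries. The 2 YFPneg groups overlapped. They gave a log2 fold change of 0.34 (SE 0.42, adjusted p 0.64) that no alternative moved past the threshold; it was 0.05 without SGC0946 library 1 and 0.59 without SGC0946 library 2. Ltbp3, which binds latent TGF-beta in the matrix (chromosome 19, 5740904 to 5758532), had 7.25, 8.74 and 5.76 CPM in YFPpos SGC0946, 1.67, 0.774 and 0.653 CPM in YFPpos SGC0649, 0.695, 2.81 and 0.069 CPM in YFPneg SGC0946, 0.152 and 0.208 CPM in YFPneg SGC0649 and 0, 0.0593 and 0.0546 CPM in naive libraries. Its YFPneg SGC0946 libraries 1 and 2 lay above both SGC0649 libraries and library 3 lay below them, for a log2 fold change of 2.70 (SE 0.97, adjusted p 0.089), with an adjusted p of 0.014 without library 3 and 0.032 with the DESeq2 Wald test. Without SGC0946 library 2 the log2 fold change was 1.18.

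Esm1, a proteoglycan secreted by endothelium (chromosome 13, 113209659 to 113218098), had 8.54, 6.79 and 7.59 CPM in YFPpos SGC0946, 1.32, 0.387 and 0.74 CPM in YFPpos SGC0649, 2.3, 0.935 and 0.069 CPM in YFPneg SGC0946, 0 and 0.364 CPM in YFPneg SGC0649 and 0.058, 0 and 0.0546 CPM in naive libraries. Crispld2, a secreted protein with a cysteine-rich CAP domain (chromosome 8, 119992438 to 120052793), had 10.7, 10.3 and 7.43 CPM in YFPpos SGC0946, 1.32, 0.677 and 0.827 CPM in YFPpos SGC0649, 3.37, 1.37 and 0.207 CPM in YFPneg SGC0946, 0.0508 and 0.0521 CPM in YFPneg SGC0649 and 0, 0 and 0.164 CPM in naive libraries. In both genes the YFPneg SGC0946 libraries spread widely, and library 3 was the lowest. Esm1 did not pass the test in YFPneg cells (log2 fold change 2.64 (SE 1.00, adjusted p 0.10); adjusted p 0.016 without SGC0946 library 3). Its log2 fold change was 1.50 without SGC0946 library 1 and 1.66 without SGC0649 library 1, and without SGC0649 library 2 the group it is set against had no count. Crispld2 was 34.8-fold higher on 88 counts against 2 (95% counting interval 9.35 to 291.6; adjusted p 0.014), a call lost without either SGC0649 library (adjusted p 0.074 without library 1 and 0.098 without library 2), with limma-voom (0.11) and in a fit of the compared groups alone (0.12). The annotated gene Gm20388 overlaps Crispld2 on the same strand, so its count is uncertain.

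Atp6v0d2, a subunit of the proton pump known from osteoclasts (chromosome 4, 19876841 to 19922605), had the most CPM of all members, 15.3, 13.5 and 12.6 CPM in YFPpos SGC0946, against 2.63, 1.45 and 0.827 CPM in YFPpos SGC0649 libraries. It had 5.08, 5.3 and 2.21 CPM in YFPneg SGC0946, 2.59 and 0.0521 CPM in YFPneg SGC0649 and 0.116, 0.0593 and 0.109 CPM in naive libraries. The 2 YFPneg SGC0649 libraries lay far apart and the first of them fell within the SGC0946 range. The log2 fold change in YFPneg cells was 1.67 (SE 0.66, adjusted p 0.12), and the gene passed without SGC0649 library 1 (adjusted p 0.0077), without SGC0946 library 3 (0.047) and with a replicate block (0.039). The log2 fold change itself was 6.21 without SGC0649 library 1 and 0.71 without SGC0649 library 2. Pde4a, a phosphodiesterase that breaks down cyclic AMP (chromosome 9, 21165714 to 21213248), had 7.48, 7.4 and 6.26 CPM in YFPpos SGC0946, 1.89, 1.4 and 1.52 CPM in YFPpos SGC0649, 2.14, 3.12 and 0.69 CPM in YFPneg SGC0946, 0.66 and 0.521 CPM in YFPneg SGC0649 and 0.058, 0.297 and 0.437 CPM in naive libraries. The YFPneg groups did not overlap, but SGC0946 library 3 lay just above the higher SGC0649 library, and the log2 fold change was 1.76 (SE 0.55, adjusted p 0.057). The adjusted p was 0.0041 without library 3, 0.038 without the low-count filter and 0.016 with the DESeq2 Wald test.

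**Figure D2:**
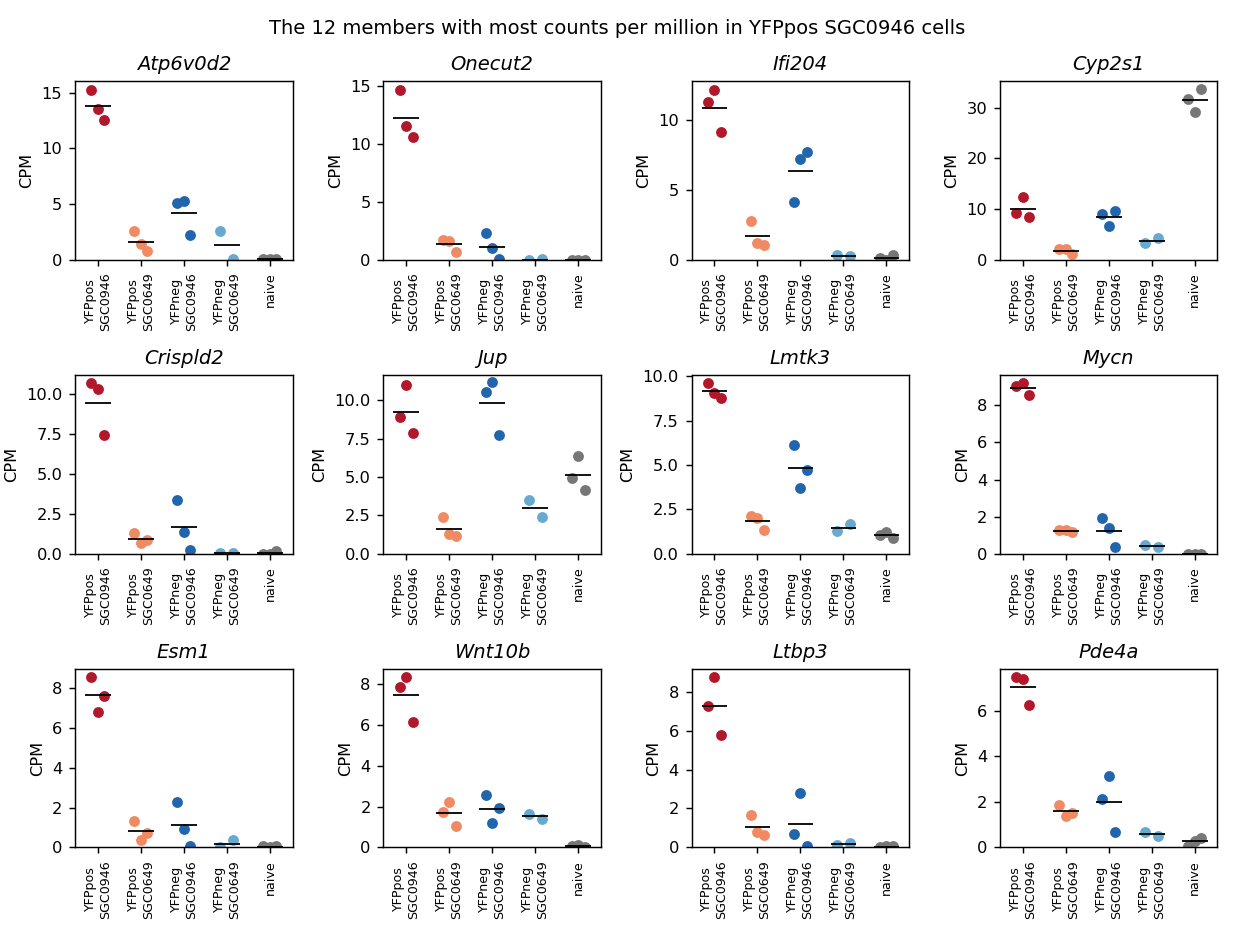
CPM by library (points) and group means (lines) for the 12 members with most CPM in YFPpos SGC0946 cells, each on its own axis from 0. In all 12 the YFPpos SGC0946 points lie above the YFPpos SGC0649 points, as the rule required. Cyp2s1 has its highest points in naive cells, and Jup has YFPneg SGC0946 points in the range of its YFPpos SGC0946 points.

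The test that did not use the libraries of the rule is SGC0946 against SGC0649 in YFPneg cells, the reporter-negative cells of the Th1 cultures. If same-numbered YFPpos and YFPneg libraries shared a culture, which is not known, it is not fully independent of the rule. With edgeR's quasi-likelihood test and Benjamini-Hochberg adjustment over all genes, 37 of 186 members were higher with SGC0946 (19.9%), against 4.99% of all genes tested, and none was lower, against 3.64%. Only 141 members would have passed the low-count filter on YFPneg libraries alone, and 33 of these were called; the other 45 entered the test through other libraries, mostly those the rule used, and 4 of them were called. Without adjustment, at p under 0.05, 94 members were higher, where 14.2% of genes tested were, and 2 were lower, where 12.5% were; neither DESeq2 nor limma-voom called a member lower. The log2 fold change was above 0 for 165 members, against 51.2% of genes tested, and the median was 1.18 for the members (quartiles 0.637 and 2.02) and 0.00781 for all genes tested. Every SGC0946 library lay above both SGC0649 libraries for 73 members (39.2%), where 14% of genes tested did, and every one lay below for 2 members, where 16% did. These counts and the median hold all 186 members, with the 45 that entered through other libraries, and were not split by the filter. Most genes tested had higher counts than the members, and folds of weakly counted genes scatter more. The median in YFPneg SGC0649 cells was 0.412 CPM for the members and 32.4 CPM for genes tested. A member near 0 counts there can hardly be called lower or lie wholly below, so nothing is read from the small numbers of lower members. In bulk RNA, fewer cells transcribing a gene and less RNA of it per cell cannot be told apart, here and in all comparisons.

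The count of 37 depended on single libraries and on the estimate of spread. It was 14 without SGC0649 library 2, 26 without SGC0649 library 1 and 68 without SGC0946 library 3, and all of these were higher. Without SGC0946 library 1 the actin regulator Fmnl2 (adjusted p 0.037), and without library 2 the Hedgehog target Gli1 (0.033), were called lower beside 38 and 35 members called higher; both genes were picked with their values known. In a fit of the 5 YFPneg libraries alone, 4 of the 141 members that passed the low-count filter there were called, namely Ifi204, Arhgef40, Jup and P3h4. Across the YFPneg SGC0946 libraries 1 to 3, the number of members at 1 CPM or more was 100, 95 and 78 and the number at 0 counts was 4, 1 and 30, against 48 and 43 members at 1 CPM or more and 20 and 21 at 0 counts in the SGC0649 libraries. The level of Ifng also differed among these libraries: YFPneg SGC0946 libraries 1 to 3 held 15.7%, 10.2% and 4.28% of the Ifng CPM of the YFPpos library of the same number, and SGC0649 libraries 1 and 2 held 6.22% and 4.17%. The median member had 37.5%, 36.8% and 21.3% of its YFPpos CPM in SGC0946 libraries 1 to 3, and 59.4% and 61.0% in SGC0649 libraries 1 and 2. Summed over the members, the YFPneg CPM was 56.6%, 55.8% and 56.9% of the YFPpos CPM in SGC0946 libraries 1 to 3 and 101% and 111% in SGC0649 libraries 1 and 2. SGC0946 library 3 had less Ifng (30.9 CPM) than SGC0649 library 1 (42.2 CPM). It had more members at 1 CPM or more, 78 against 48, and also more members at 0 counts, 30 against 20. The part of reporter-positive cells in the YFPneg sort was not tested. Every YFPneg SGC0946 library lay above every YFPpos SGC0946 library for 11 members, where 26.5% of genes tested did, and every one lay below for 136, where 33.3% did. The members were chosen for high YFPpos SGC0946 and low YFPpos SGC0649 values. Nothing is therefore read from these counts or from the members' shares of YFPpos CPM. The shares also set libraries side by side by number, and whether the numbers pair them is not known.

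**Figure D3:**
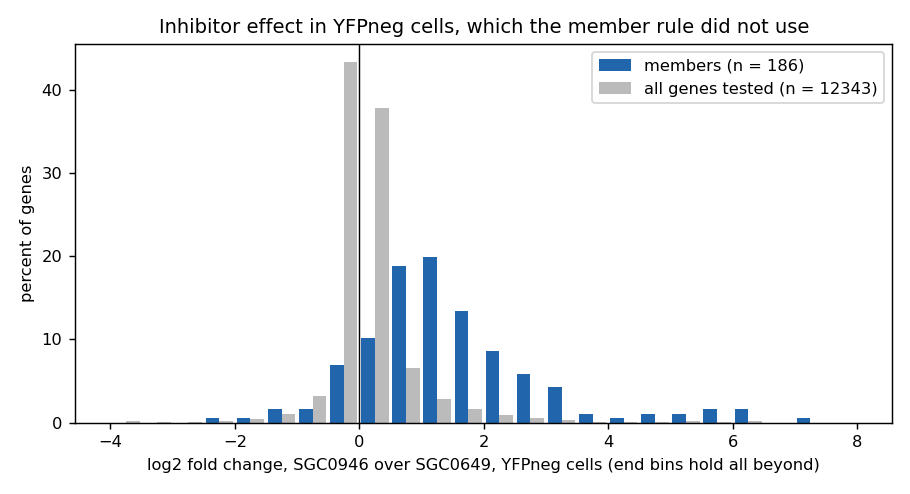
Percent of the 186 members (blue) and of all 12343 genes tested (grey) by log2 fold change of SGC0946 over SGC0649 in YFPneg cells, in bins of 0.5. The grey bars peak in the bins on either side of 0 (43.3% and 37.8%), and the tallest blue bar is that from 1 to 1.5 with 19.9% of the members.

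The 12 members with the smallest p in YFPneg cells included signalling and surface genes. Arhgef40, a guanine nucleotide exchange factor for small GTPases (chromosome 14, 51984719 to 52006251), had 2.94, 3.93 and 8.84 CPM in YFPneg SGC0946 and 0.559 and 0.677 CPM in YFPneg SGC0649 libraries, and 0.058, 0 and 0 CPM in naive libraries. Cd93, a C-type lectin receptor known from endothelium and early B lineage cells (chromosome 2, 148436640 to 148443563), had 0.963, 0.998 and 1.38 CPM in YFPneg SGC0946, 0.102 and 0.104 CPM in YFPneg SGC0649 and 0.058, 0.119 and 0.218 CPM in naive libraries. In both genes the SGC0946 libraries all lay above the SGC0649 libraries, and library 3 was the highest. The log2 fold change was 3.08 (SE 0.48, adjusted p 0.0017) for Arhgef40, called under all 11 alternatives, and 3.37 (SE 0.56, adjusted p 0.0023) for Cd93, with an adjusted p of 0.22 in a fit of the compared groups alone. In YFPpos cells Arhgef40 averaged 5.99 ± 0.328 CPM with SGC0946 and 1.96 ± 0.0733 CPM with SGC0649, and Cd93 averaged 6.46 ± 0.844 CPM with SGC0946 and 1.3 ± 0.145 CPM with SGC0649 (SD, n = 3 each).

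Lmtk3, a membrane kinase (chromosome 7, 45783738 to 45804144), had 9.64, 9.02 and 8.79 CPM in YFPpos SGC0946, 2.15, 2.03 and 1.35 CPM in YFPpos SGC0649, 6.1, 3.68 and 4.69 CPM in YFPneg SGC0946, 1.27 and 1.67 CPM in YFPneg SGC0649 and 1.04, 1.25 and 0.874 CPM in naive libraries. Ptprf, a receptor tyrosine phosphatase of the LAR family (chromosome 4, 118208213 to 118291405), had 11.3, 11.2 and 13.5 CPM in YFPneg SGC0946, 5.43 and 6.25 CPM in YFPneg SGC0649 and 5.16, 4.57 and 5.13 CPM in naive libraries. Ptprf stood higher in YFPneg SGC0946 than in YFPpos SGC0946 cells, where it averaged 6.48 ± 0.22 CPM, against 1.94 ± 0.287 CPM in YFPpos SGC0649 cells (SD, n = 3 each). The YFPneg groups did not overlap in either gene. The log2 fold change in YFPneg cells was 1.73 (SE 0.31, adjusted p 0.0034) for Lmtk3 and 1.05 (SE 0.19, adjusted p 0.0042) for Ptprf, and in a fit of the compared groups alone the adjusted p was 0.13 for Lmtk3 and 0.069 for Ptprf.

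A pair of neighbours on chromosome 11 encode proteins of adhesion and matrix. Jup, plakoglobin of desmosomes and adherens junctions (chromosome 11, 100368958 to 100397763), had 8.9, 11 and 7.84 CPM in YFPpos SGC0946, 2.41, 1.31 and 1.18 CPM in YFPpos SGC0649, 10.5, 11.2 and 7.73 CPM in YFPneg SGC0946, 3.5 and 2.39 CPM in YFPneg SGC0649 and 4.93, 6.35 and 4.15 CPM in naive libraries. P3h4, a partner of the enzymes that modify collagen lysines in the endoplasmic reticulum (chromosome 11, 100408456 to 100414836), had 3.64, 4.12 and 4.76 CPM in YFPneg SGC0946, 0.813 and 0.364 CPM in YFPneg SGC0649 and 0.174, 0.119 and 0 CPM in naive libraries. Both genes had all SGC0946 libraries above both SGC0649 libraries in YFPneg cells, and the log2 fold change was 1.74 (SE 0.31, adjusted p 0.0036) for Jup and 2.82 (SE 0.56, adjusted p 0.0071) for P3h4. Without SGC0649 library 2 the adjusted p was 0.054 for Jup and 0.079 for P3h4. Hap1, the partner of huntingtin in vesicle transport (chromosome 11, 100347327 to 100356128), lies 12.8 kb from Jup with no gene of the table between them, and was also called (2.09 (SE 0.61, adjusted p 0.044)), with 3.16, 1.37 and 5.32 CPM in YFPneg SGC0946, 0.356 and 1.2 CPM in YFPneg SGC0649 and 0.522, 0.297 and 0.874 CPM in naive libraries.

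Chl1, a neural cell adhesion molecule of the L1 family (chromosome 6, 103510586 to 103750211), had 1.87, 1.75 and 0.345 CPM in YFPneg SGC0946, 0 and 0.104 CPM in YFPneg SGC0649 and 0.986, 1.48 and 1.09 CPM in naive libraries. It was 26.9-fold higher with SGC0946 in YFPneg cells, on 68 counts against 2 (95% counting interval 7.16 to 226.4; adjusted p 0.0067, and 0.15 in a fit of the compared groups alone), and it averaged 5.02 ± 1.02 CPM in YFPpos SGC0946 and 1.24 ± 0.287 CPM in YFPpos SGC0649 cells (SD, n = 3 each). Naive and YFPneg SGC0946 libraries overlapped, and both YFPneg SGC0649 libraries lay below them. Pltp, the phospholipid transfer protein of plasma (chromosome 2, 164839518 to 164857711), had 6.26, 3.31 and 5.52 CPM in YFPneg SGC0946, 1.32 and 0.937 CPM in YFPneg SGC0649 and 0.348, 0.237 and 0.218 CPM in naive libraries. 5031414D18Rik, a gene of unassigned role (chromosome 14, 75016027 to 75052532), had 2.83, 1.37 and 2.69 CPM in YFPneg SGC0946, 0.356 and 0.0521 CPM in YFPneg SGC0649 and 0.116, 0.0593 and 0.109 CPM in naive libraries. For Pltp and 5031414D18Rik the YFPneg groups did not overlap. The log2 fold change was 2.16 (SE 0.42, adjusted p 0.0067) for Pltp and 3.46 (SE 0.69, adjusted p 0.0072) for 5031414D18Rik. Without SGC0649 library 2 the adjusted p was 0.071 for Pltp and 0.077 for 5031414D18Rik. In a fit of the compared groups alone it was 0.064 for Pltp and 0.12 for 5031414D18Rik. Without SGC0649 library 1 the log2 fold change of 5031414D18Rik was 5.33, and without SGC0649 library 2 the group Chl1 is set against had no count.

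Of 11 members placed by hand among innate immune, myeloid and cell death genes, 3 were called in YFPneg cells, beside 19.9% of all members. Ifi204, an interferon-inducible DNA sensor of the p200 family (chromosome 1, 173747293 to 173766943), had 11.3, 12.2 and 9.14 CPM in YFPpos SGC0946, 2.81, 1.21 and 1.04 CPM in YFPpos SGC0649, 4.17, 7.23 and 7.73 CPM in YFPneg SGC0946, 0.356 and 0.26 CPM in YFPneg SGC0649 and 0.116, 0 and 0.382 CPM in naive libraries. Its log2 fold change in YFPneg cells was 4.35 (SE 0.59, adjusted p 0.00089), called under all 11 alternatives with adjusted p of at most 0.021. The family holds closely similar neighbouring genes, Mnda among the members, so the assignment of reads among them is uncertain. Trim6, a ubiquitin ligase of the TRIM family (chromosome 7, 104218793 to 104235152), had 1.5, 0.249 and 1.04 CPM in YFPneg SGC0946 and no count in both YFPneg SGC0649 libraries, so that it was at least 12.4-fold higher with the YFPneg SGC0649 group set at its floor, 3 counts in all, (adjusted p 0.0084). Without SGC0649 library 2 the adjusted p of Trim6 was 0.057, and in a fit of the compared groups alone it was 0.12. Trim6 averaged 1.63 ± 0.216 CPM in YFPpos SGC0946 and 0.259 ± 0.0694 CPM in YFPpos SGC0649 cells (SD, n = 3 each), with 1 count in the naive libraries together.

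Naive cells, which were never cultured, split the members into 3 classes by mean level. In naive cells 117 members (62.9%) were silent, under 0.2 CPM, 35 were near-silent, from 0.2 to under 1 CPM, and 34 (18.3%) were expressed at 1 CPM or more, where 83.5% of genes tested were. No count was found in any naive library for 48 members. A count of 0 allows up to 0.164 to 0.178 CPM in a naive library, the level of 3 counts. By median, the silent class had 2.71 CPM in YFPpos SGC0946, 0.681 CPM in YFPpos SGC0649, 0.808 CPM in YFPneg SGC0946, 0.333 CPM in YFPneg SGC0649 and 0.0193 CPM in naive cells. The near-silent class had 2.8 CPM in YFPpos SGC0946, 0.568 CPM in YFPpos SGC0649, 0.981 CPM in YFPneg SGC0946, 0.489 CPM in YFPneg SGC0649 and 0.424 CPM in naive cells. The expressed class had 3.57 CPM in YFPpos SGC0946, 0.983 CPM in YFPpos SGC0649, 3.6 CPM in YFPneg SGC0946, 1.97 CPM in YFPneg SGC0649 and 3.64 CPM in naive cells. The YFPpos medians are set in part by the choice of members, and the naive medians by the classes. The YFPpos SGC0946 mean was the highest of the 5 groups for 153 members, the YFPneg SGC0946 mean for 15, the YFPneg SGC0649 mean for 1 and the naive mean for 17.

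**Figure D4:**
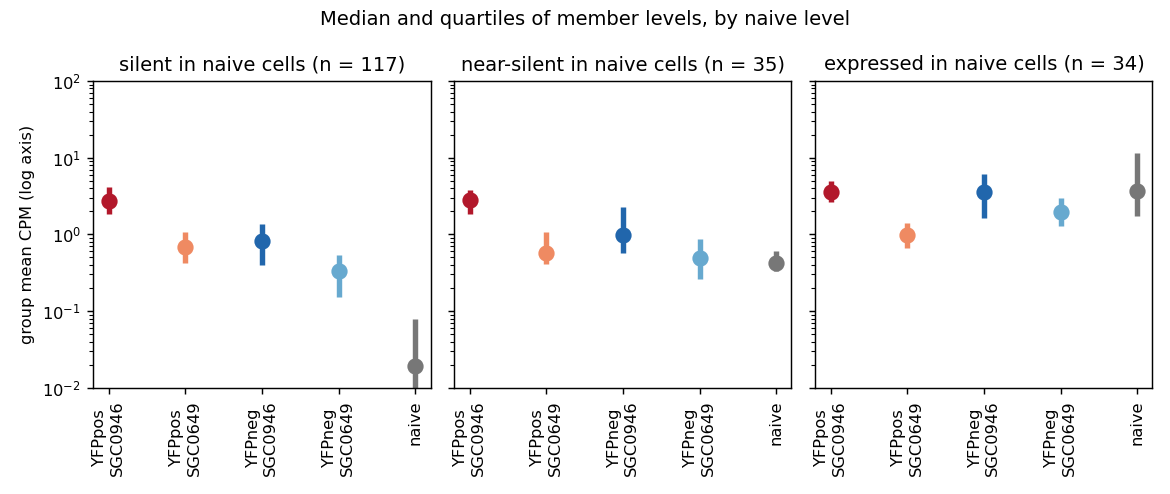
Median (points) and quartiles (bars) over members of the group mean CPM, on a log axis, for members silent, near-silent and expressed in naive cells; values under 0.01 CPM are cut at the axis. Silent members have a naive median of 0.0193 CPM, and expressed members have a naive median of 3.64 CPM, beside 3.57 CPM in YFPpos SGC0946 cells.

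Among the 48 members with no count in naive cells, the 6 with most CPM in YFPpos SGC0946 were Onecut2, Mycn, Cwh43, Kif1a, Rtkn and Procr. Against the floor of 3 counts over the naive group, YFPneg SGC0946 cells were at least 21.7-fold higher for Onecut2, 22.4-fold for Mycn and 44.4-fold for Cwh43, whose yeast counterpart remodels the lipid of GPI anchors. They were at least 12.8-fold higher for Kif1a, a motor of axonal vesicles, 24.8-fold for Rtkn, an effector of small GTPases, and 19.5-fold for Procr, the endothelial protein C receptor. The 6 genes were picked for no naive count, so nothing is read from this direction. These bounds pool the YFPneg SGC0946 libraries and do not hold for each library. Library 3 held 1 count for Onecut2, 5 for Mycn, 33 for Cwh43, 2 for Kif1a, 0 for Rtkn and 7 for Procr. Cwh43 averaged 5.63 ± 0.931 CPM in YFPpos SGC0946, 1.02 ± 0.421 CPM in YFPpos SGC0649 and 2.53 ± 0.265 CPM in YFPneg SGC0946 cells (SD, n = 3 each), and 0.545 ± 0.555 CPM in YFPneg SGC0649 cells (SD, n = 2). Kif1a averaged 5.38 ± 0.982 CPM in YFPpos SGC0946 and 0.717 ± 0.62 CPM in YFPneg SGC0946 cells. Rtkn averaged 5.37 ± 0.673 CPM in YFPpos SGC0946 and 1.38 ± 1.44 CPM in YFPneg SGC0946 cells. Procr averaged 5.04 ± 0.763 CPM in YFPpos SGC0946 and 1.05 ± 0.857 CPM in YFPneg SGC0946 cells (SD, n = 3 each for these 3 genes). All 6 lay lower in YFPneg than in YFPpos SGC0946 cells, but they were picked for high YFPpos SGC0946 values, so nothing is read from this. Between compounds in YFPneg cells Cwh43 passed the test (2.23 (SE 0.56, adjusted p 0.025)), and Kif1a (1.49 (SE 0.75, adjusted p 0.22)), Rtkn (1.60 (SE 0.93, adjusted p 0.29)) and Procr (1.07 (SE 0.82, adjusted p 0.43)) did not.

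The 6 members with most CPM in naive cells were all lower in YFPneg than in naive cells with either compound, with adjusted p of at most 0.00040. They were picked for high naive levels among members held low in YFPpos SGC0649 cells, so nothing is read from this direction. St8sia6, a sialyltransferase (chromosome 2, 13651021 to 13794064), averaged 3.75 ± 0.939 CPM in YFPpos SGC0946, 1.06 ± 0.311 CPM in YFPpos SGC0649 and 23.8 ± 8.64 CPM in YFPneg SGC0946 cells (SD, n = 3 each), 16.2 ± 0.117 CPM in YFPneg SGC0649 cells (SD, n = 2) and 181 ± 16.1 CPM in naive cells (SD, n = 3). Cyp2s1, a cytochrome P450 known as a target of the aryl hydrocarbon receptor (chromosome 7, 25802475 to 25816913), had 9.22, 12.5 and 8.54 CPM in YFPpos SGC0946, 2.15, 2.08 and 1.18 CPM in YFPpos SGC0649, 9.15, 6.61 and 9.6 CPM in YFPneg SGC0946, 3.35 and 4.22 CPM in YFPneg SGC0649 and 31.7, 29.1 and 33.6 CPM in naive libraries. Epas1, the hypoxia factor HIF-2alpha (chromosome 17, 86753700 to 86833410), had 4.92, 6.8 and 4.9 CPM in YFPneg SGC0946, 1.17 and 2.81 CPM in YFPneg SGC0649 and 27.7, 29.5 and 26.4 CPM in naive libraries, and averaged 3.39 ± 0.62 CPM in YFPpos SGC0946 and 0.87 ± 0.197 CPM in YFPpos SGC0649 cells (SD, n = 3 each). In all 3 genes every naive library lay above every library of cultured cells, and the YFPneg SGC0946 libraries lay above both YFPneg SGC0649 libraries. Between compounds in YFPneg cells the log2 fold change was 1.17 (SE 0.24, adjusted p 0.0092) for Cyp2s1 and 1.49 (SE 0.30, adjusted p 0.0071) for Epas1. Without SGC0649 library 1 the adjusted p was 0.064 for Cyp2s1 and 0.054 for Epas1, and in a fit of the compared groups alone it was 0.12 for Cyp2s1 and 0.18 for Epas1. Without SGC0649 library 2 the log2 fold change of Epas1 was 2.24. St8sia6 had a log2 fold change of 0.56 (SE 0.22, adjusted p 0.11).

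The other 3 were Sorcs2, a sorting receptor of the VPS10 family, Matk, a kinase that restrains Src-family kinases, and Epb41l1, a membrane skeleton protein. Sorcs2 averaged 11 ± 2.94 CPM in YFPneg SGC0946 (SD, n = 3), 7.09 ± 0.894 CPM in YFPneg SGC0649 (SD, n = 2) and 24.5 ± 5.95 CPM in naive cells (SD, n = 3). Matk averaged 10.6 ± 4.32 CPM in YFPneg SGC0946 (SD, n = 3), 4.66 ± 0.699 CPM in YFPneg SGC0649 (SD, n = 2) and 23.7 ± 2.47 CPM in naive cells (SD, n = 3). Epb41l1 averaged 4.9 ± 1.00 CPM in YFPneg SGC0946 (SD, n = 3), 3.62 ± 0.41 CPM in YFPneg SGC0649 (SD, n = 2) and 16.8 ± 0.846 CPM in naive cells (SD, n = 3). Naive means were the highest of the 5 groups for all 3, and of these Matk passed the test between compounds in YFPneg cells (1.20 (SE 0.31, adjusted p 0.027)).

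Against naive cells, YFPneg SGC0946 cells had 131 members higher (70.4%), where 38.6% of genes tested were, and 16 lower (8.6%), where 34.3% were. YFPneg SGC0649 cells, set against the same naive libraries, had 72 members higher (38.7%), near the 36.4% of all genes tested, and 24 lower (12.9%), where 32.6% were. These counts hold all 186 members, of which 144 would have passed the low-count filter on YFPneg and naive libraries. By class, YFPneg SGC0946 cells had 108 silent, 17 near-silent and 6 expressed members higher than naive cells, and all 16 lower ones were of the expressed class. YFPneg SGC0649 cells had 65 silent and 7 near-silent members higher than naive cells, and 2 near-silent and 22 expressed members lower. The classes are set by the same naive values, and a silent member can hardly be called lower. Nothing is therefore read from this split or from the shares of members called lower than naive. With limma-voom the members called higher than naive were 107 for YFPneg SGC0946 and 56 for YFPneg SGC0649, and with each pair of groups fitted alone they were 53 of 91 and 22 of 71 members tested. The compound test in YFPneg cells called 22 silent, 5 near-silent and 10 expressed members, all higher.

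By role, calls stand beside the shares over all members in YFPneg cells: 19.9% called higher and 88.7% with a log2 fold change above 0. Over all genes tested these shares were 4.99% and 51.2%, and no role was tested against them. Transcription factors and chromatin proteins were 21 members, of which 5 were higher in YFPneg SGC0946 than YFPneg SGC0649 cells and 17 were silent in naive cells. Beside Onecut2 and Epas1, those higher were Twist1, a mesodermal factor also known from repeatedly activated Th1 cells, Ovol2, a zinc finger factor of epithelia, and Jdp2, an AP-1 repressor. The others were the factors Msc, Mecom, Mycn, Foxf1, Ebf1, Gli1, Glis2 and Myrf, the class II activator Ciita, the Groucho co-repressors Tle2 and Tle6, the co-repressors Rcor2 and Ctbp2, the linker histone H1fx, and Bahcc1 and Samd11. Ebf1 and Ciita are known from B cells, whose 6 markers summed to at most 0.506 CPM in YFPpos SGC0946 and 0.827 CPM in YFPpos SGC0649 libraries. Of these 6 markers, 2 were at 0 counts in all YFPpos SGC0946 libraries. In naive libraries the 6 summed to 1.51 to 2.57 CPM.

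Secreted ligands and surface receptors were 20 members, of which Cd93, Ptprf and the lectin-like Clec2l were higher in YFPneg SGC0946 cells. The others were the ligands Wnt10b, Efna1 and Inha, the latent TGF-beta binder Ltbp3, the TGF-beta family receptors Eng and Acvr1c, the growth factor receptor Fgfr1, the Wnt receptor Fzd10, and Gpr161, Procr, Adora3, Sorcs2, Antxr1, Pianp, Mrgpre, Shisa2 and Islr2. Matrix, protease and adhesion genes were 22 members. All had a log2 fold change above 0 in YFPneg cells, beside 88.7% of all members, and 7 were called, beside 19.9%. Among those called were Jup, P3h4, Chl1, the gelatinase Mmp9 and the mucin Muc2. Among those not called were Cdh17, Pdpn, Spink2, Spock2, Col18a1, Adamtsl5, Tgm1, Mmp10, Nid1, Esm1, Matn2, Cela1, Muc13 and Prss30. The 4 epithelial markers Epcam, Krt8, Krt18 and Cdh1 summed to 2.2 to 2.52 CPM in YFPpos SGC0946 and 1.01 to 1.7 CPM in YFPpos SGC0649 libraries. They summed to 3.38 to 10.4 CPM in YFPneg SGC0946 and 2.23 to 5.67 CPM in YFPneg SGC0649 libraries, mostly as Epcam, which T cells also express, and Krt8 was at 0 counts in both YFPneg groups.

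Kinases, GTPase regulators and other signalling genes were the largest role with 29 members, of which 5 were higher in YFPneg SGC0946 cells, among them Arhgef40, Lmtk3, Matk and Lrrk2, a kinase known from inherited Parkinson's disease. Among those not called were Lyn, Camk1, Camkk1, Camk2n1, Irak3, Dmpk, Brsk1, Mast1, Ripk4, Dock3, Arhgap32, Fgd2, Rhobtb1, Rap1gap2, Syde1, Rtkn, Plekhg3, Plekhf1, Pde4a, Dgkg, Card10, Cass4, Ppp1r3g and Cdkn1c. Cytoskeleton, scaffold and membrane traffic genes were 24 members, of which Hap1 and Dysf, a membrane repair protein of muscle, were higher. The others were Obsl1, Kif1a, Bicd1, Fmnl2, Fhdc1, Tubb3, Epb41l1, Lima1, Sorbs3, Sh3d19, Tns3, Smtnl2, Myl10, Sept5, Ehd2, Rab11fip5, Prkcdbp, Dlg2, Dlgap3, Tspan2, Exph5 and Cpne6. The 6 ion channel and pump genes, among them Atp6v0d2, Scn4b, Pkd2 and Clic5, all had a log2 fold change above 0, beside 88.7% of all members. Their smallest adjusted p was 0.051 by edgeR, 3 had an unadjusted p under 0.05, and DESeq2 and limma-voom each called 1.

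Enzymes of sugar, lipid and small molecule metabolism, with proteins of the secretory pathway, were 21 members. Cyp2s1, Pltp, Cwh43, the chitinase Chit1, the glutathione transferase Gstm5, the Golgi mannosidase Man1c1 and Enpp5 were higher in YFPneg SGC0946 cells. Among those not called were Npl, St8sia6, St6galnac2, Fut10, Extl1, Azin2, Fads3, Epm2a, Kdelr3, Rcn3, Selm, Svip and Fbxo2. Among 11 innate immune, myeloid and cell death genes, Oasl1, a member of the interferon-induced oligoadenylate synthetase-like family, was higher beside Ifi204 and Trim6, and Mnda, Cmpk2, C3, Ocstamp, Dfna5, Bok, S100a4 and Gca were not called. The 8 myeloid and dendritic cell markers summed to 6.45 to 7.98 CPM in YFPpos SGC0946 and 0.609 to 2.19 CPM in YFPpos SGC0649 libraries, with Itgam and Flt3 called higher there. They summed to 2.35 to 6.95 CPM in YFPneg SGC0946 and 0.416 to 3.0 CPM in YFPneg SGC0649 libraries, where the smallest adjusted p of the 5 tested was 0.080 by edgeR, 1 had an unadjusted p under 0.05, DESeq2 called 1 and limma-voom 0. Itgam averaged 3.36 CPM in YFPneg SGC0946 and 0.995 CPM in YFPneg SGC0649 cells. Lyz2 averaged 0.0999 CPM in YFPpos SGC0946 and 0.0145 CPM in YFPpos SGC0649 cells, and 2 of the 8 markers were at 0 counts in each of these groups. In naive libraries the 8 markers summed to 5.81 to 9.23 CPM, and Lyz2 averaged 2.02 CPM. The part of cells with these markers in the members' values was not tested.

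The 5 RNA-binding and germline genes were Rbm47, Rbfox2, Spats2, M1ap and the meiotic cohesin subunit Rec8. Their smallest adjusted p in YFPneg cells was 0.071 by edgeR, 1 had an unadjusted p under 0.05, DESeq2 called 1 and limma-voom 0. Of 27 members with another or no assigned role, Crispld2, 5031414D18Rik, Ypel4, C77080 and 2210011C24Rik were higher. The others were Fam135a, Fam217b, Smim10l2a, Pdzd4, Tceal8, Tceal3, Tctex1d1, Tmem51, Fam131b, Sprn, Oit3, Lrrc75b, 6430548M08Rik, 4930452B06Rik, Lrrc3b, Uaca, Kbtbd13, Heatr9, Pxdc1, Tmem121, Guca1a and Cystm1. Over all roles, the 37 called members had log2 fold changes of 0.93 to 7.27, and the upper end belongs to genes with no count in YFPneg SGC0649 cells, where the fitted value is no measure of size. Beside Trim6, those with no count there were Mmp9, at least 6.06-fold higher, Ovol2, at least 5.8-fold, Clec2l, at least 5.53-fold, and Gstm5, at least 3.95-fold; these 4 were picked with their values known, and are the 4 called members that would not have passed the low-count filter on YFPneg libraries alone.

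The members lay on all autosomes and the X chromosome. Chromosome 7 held 18 members (9.68%, against 7.66% of genes tested), chromosome 4 held 16 (8.6%, against 6.08%), chromosome 6 held 15 (8.06%, against 4.66%), chromosome 2 held 15 (8.06%, against 7.95%) and chromosome 10 held 13 (6.99%, against 4.97%). Chromosome 11 held 12 (6.45%, against 8.47%), chromosome 18 held 2 (1.08%, against 2.37%) and the X chromosome held 4 (2.15%, against 3.15%). These shares are a description and carry no test. Members had a median span of 25.4 kb and a median of 4.26 kb of exon, against 23.3 kb and 4.45 kb for genes tested.

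**Figure D5:**
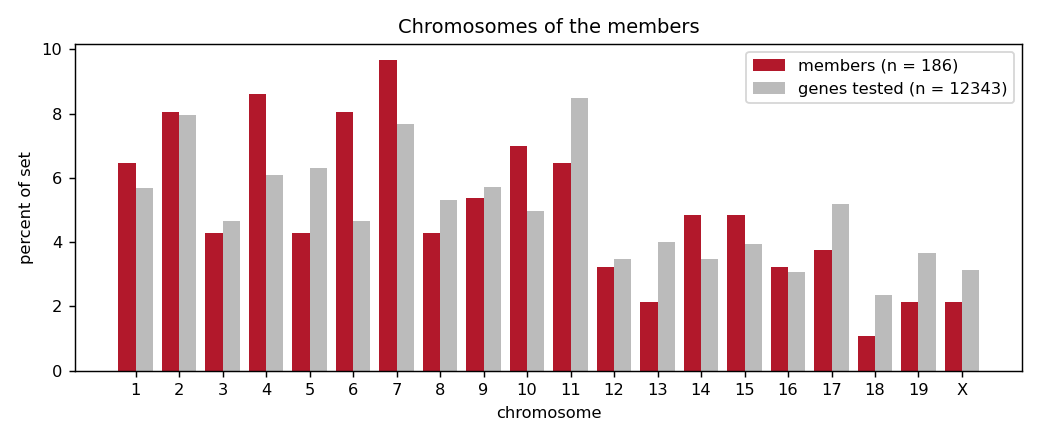
Percent of the 186 members (red) and of all 12343 genes tested (grey) on each chromosome. Chromosome 6 holds 8.06% of the members against 4.66% of genes tested, and no member lies on the Y or the mitochondrial chromosome, which are not drawn.

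Within 1 Mb of another member lay 60 members, in 40 pairs. In 3 pairs no other gene of the table lay between the members: Hap1 and Jup, Jup and P3h4, 10.7 kb apart, and Tle2 and Tle6. The last pair lies on opposite strands of chromosome 10, 0.058 kb apart, with the ends of the genes and not their starts facing each other. Tle2 averaged 2.89 ± 1.68 CPM in YFPneg SGC0946 (SD, n = 3) and 1.54 ± 0.337 CPM in YFPneg SGC0649 cells (SD, n = 2), and Tle6 averaged 2.37 ± 0.947 CPM in YFPneg SGC0946 (SD, n = 3) and 0.956 ± 0.562 CPM in YFPneg SGC0649 cells (SD, n = 2). Neither passed the test (log2 fold change 0.92 (SE 0.53, adjusted p 0.28) for Tle2 and 1.31 (SE 0.48, adjusted p 0.094) for Tle6). Other near pairs were Obsl1 and Inha on chromosome 1, 0.624 kb apart, Crispld2 and 6430548M08Rik on chromosome 8, 61.4 kb apart, Rec8 and Tgm1 on chromosome 14, 74.6 kb apart, and Pltp and Mmp9 on chromosome 2, 83.1 kb apart. Hap1 and P3h4, with Jup between them, were 52.3 kb apart, and the remaining pairs were 101 kb to 978 kb apart.

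A same-strand gene at a mean of 10 CPM or more in YFPpos SGC0946 cells ended within 10 kb upstream of 14 members (7.53%), against 14.8% of genes tested. Among these, Heatr9 lies 3603 bases downstream of the chemokine gene Ccl5, which averaged 106 CPM in YFPpos SGC0946 and 15.1 CPM in YFPpos SGC0649 cells. Dmpk lies 1073 bases downstream of Dmwd, with 32.9 CPM in YFPpos SGC0946 and 14.4 CPM in YFPpos SGC0649 cells. Whether reads that run on from these genes enter the members' counts was not tested, and these 2 were picked with their values known. The annotated span of another gene overlapped 10 members on the same strand (5.38%, against 4.79% of genes tested), so their counts are uncertain: Mnda (with Mndal), S100a4 (Gm42674), Adora3 (Tmigd3), Ctbp2 (Fgfr2), Crispld2, 6430548M08Rik, Foxf1 and Tubb3 (Gm20388), Islr2 (Islr) and Sept5 (Gp1bb).

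A list of 14 genes, Dot1l with genes of its complex and of partner complexes, was also counted, and all were tested. Not all of them act in placing the mark. In YFPpos SGC0946 against YFPpos SGC0649 cells Ell2 and Men1 were higher and Aff1, Aff3, Aff4, Dot1l and Mllt3 were lower, with a list median log2 fold change of -0.12, beside 12.1% of genes tested called higher and 15.7% lower. In YFPneg cells the smallest adjusted p of the 14 was 0.059 by edgeR, 5 had an unadjusted p under 0.05, DESeq2 called 1 and limma-voom 0, and Dot1l had a log2 fold change of -0.20 (SE 0.07, adjusted p 0.089).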

How the data were processed

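The authors deposited raw read counts per gene for 14 libraries. Per the submitters' processing notes, featureCounts, edgeR and limma were used on build GRCm38; they give no versions, and the aligner and the release of the annotation are not stated. Per the file headers the rows are protein-coding genes, and the table's name states reverse-strand counting. The deposited table of counts per assignment category gave the unmapped shares.

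All libraries entered one edgeR 4.0.16 quasi-likelihood model in R 4.3.3 with a coefficient per group. The filter filterByExpr left 12343 of 22048 genes, all 186 members among them, and 141 members would pass on YFPneg libraries alone. TMM scaling was used, and p-values carry the Benjamini-Hochberg adjustment over the 12343 genes, with a threshold of 0.05. Standard errors are the absolute log2 fold change over the square root of F. The common dispersion was 0.00831. The model was tested on simulated data, but nothing is read from that test for calls at the members' low counts. The median member had 0.412 CPM in YFPneg SGC0649 cells. Because groups share 1 estimate of spread, fits of the compared groups alone, DESeq2 1.42.0 and limma-voom (limma 3.58.1) were run as alternatives, with DESeq2 size factors, no low-count filter, a replicate block and each library left out. Levels are unscaled CPM with the SD over libraries. A level of 1 CPM stands for 14.5 to 31.6 counts. Exact counting intervals (95%) and floors of 3 counts cover only counting error, since PCR copies of a molecule are counted apart. P-values measure the spread between these libraries.

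Positions come from GENCODE M21 (GRCm38), in which all 186 members were found; promoters come from RefSeq. Values are given for the 12 members with most CPM in YFPpos SGC0946 cells, the 12 with the smallest p in each direction among those called in YFPneg cells, the 6 with most CPM in naive cells, the 6 with no naive count and most CPM in YFPpos SGC0946 cells, the extremes of the rule, and near neighbours. The members, gene lists and tests were chosen with earlier results of these data known. Roles were assigned by hand, and some members are counted but not reported here by name.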

Additional observations from a re-analysis of the deposited data

Results flagged for a closer look

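Inha, the alpha subunit of inhibins, went the opposite way in the 2 sorts. It had 1.56, 1.3 and 1.58 CPM in YFPpos SGC0946 and 0.614, 0.29 and 0.131 CPM in YFPpos SGC0649 libraries. In YFPneg cells it had 0.374, 0.187 and 0.069 CPM with SGC0946 and 0.863 and 0.677 CPM with SGC0649, with means of 0.21 ± 0.154 CPM with SGC0946 (SD, n = 3) and 0.77 ± 0.132 CPM with SGC0649 (SD, n = 2). Gli1, a zinc finger factor and target of the Hedgehog pathway, did the same. It had 1.93, 1.59 and 1.11 CPM in YFPpos SGC0946 and 0.395, 0.339 and 0.392 CPM in YFPpos SGC0649 libraries, and in YFPneg cells it had 0.0535, 0.249 and 0 CPM with SGC0946 and 0.508 and 0.364 CPM with SGC0649, with means of 0.101 ± 0.131 CPM with SGC0946 (SD, n = 3) and 0.436 ± 0.101 CPM with SGC0649 (SD, n = 2).

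For both genes every YFPneg SGC0946 library lay below both YFPneg SGC0649 libraries, while every YFPpos SGC0946 library lay above every YFPpos SGC0649 library. The YFPpos direction was set by the choice of members, so the difference between the sorts was not tested. In YFPneg cells neither passed edgeR's test, with a log2 fold change of -1.77 (SE 0.73, adjusted p 0.14) for Inha and -2.03 (SE 0.81, adjusted p 0.12) for Gli1. These values rest on 11 counts in 3 YFPneg SGC0946 libraries against 30 in 2 YFPneg SGC0649 libraries for Inha, and on 5 counts against 17 for Gli1.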

How the results depend on the processing

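The number of members was 60 with a fold limit of 3 in the rule and 201 to 250 with 1 YFPpos library left out; TMM-scaled CPM (172) and a mean limit of 1 CPM (127) moved it less. TMM scaling, added after seeing the data, moved each group's median member level by less than the spread between libraries. In YFPneg cells 1065 genes were called between compounds, and 1615 with DESeq2, 199 in a fit of the compared groups alone and 335 (without SGC0649 library 2) to 1520 with 1 library left out. Members called there numbered 37, and 4 with the compared groups alone and 14 to 68 with 1 library left out (14 without SGC0649 library 2, 68 without SGC0946 library 3). Against naive cells, fits of the compared groups alone called 69 members for YFPneg SGC0946 (147 in the fit of all libraries) and 46 for YFPneg SGC0649 (96 in that fit), with fewer members passing the filter and fewer libraries. In YFPpos cells 1 library left out gave 1886 (without SGC0649 library 3) to 3449 genes, and 2004 without SGC0946 library 2, against 3424 in all, and 105 (without SGC0649 library 3) to 138 members, against 164. Among the single members refitted, no log2 fold change in YFPneg cells changed sign under these alternatives. Counts were judged by size only: 90 stayed within 1.5 times and 12 did not. Of the values of single members, 25 lost a call, 11 gained one and 195 did neither. Whether the replicate numbers pair the samples is not known. Deviations of same-numbered libraries correlated at -0.0593 to 0.215, and at 0.00575 to 0.215 between cultured groups. Libraries of unlike number were not set beside them, so these values cannot decide it. The replicate block called 37 members in YFPneg cells, 31 of them shared. Depth limits what is said of members at 0 counts, and the YFPneg comparison rests on 2 control libraries. Where the cause of a change is not named here, the cause was not tested.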

Other observations

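Genes of other programmes were counted in lists over the same tests. Of 20 germline genes 6 passed the low-count filter, and in YFPpos cells Piwil2, Rec8, Spo11 and Stag3, which act in meiosis or on germline small RNAs, were higher with SGC0946 than with SGC0649 (4 of 6, beside 12.1% of genes tested). Rec8 is itself a member, chosen on these values. The list summed to 46.3 to 53.7 CPM in YFPpos SGC0946, 19.4 to 31.5 CPM in YFPpos SGC0649, 34.9 to 47.7 CPM in YFPneg SGC0946, 29.8 to 32.4 CPM in YFPneg SGC0649 and 15.1 to 16.7 CPM in naive libraries. In YFPneg cells its smallest adjusted p was 0.06 by edgeR, 3 of 6 had an unadjusted p under 0.05, and DESeq2 and limma-voom called 0.

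Of 39 Hox genes, the genes best known from MLL fusion leukaemia, 4 passed the filter. Hox genes summed to 1.63 to 2.02 CPM in YFPpos SGC0946 and 1.67 to 1.92 CPM in YFPpos SGC0649 libraries, with a smallest adjusted p of 0.505 by edgeR, and neither DESeq2 nor limma-voom called one in YFPpos cells. Of 20 neuronal genes 7 passed, Tubb3 was higher in YFPpos SGC0946 cells, and the list summed to 15.7 to 18.8 CPM in YFPpos SGC0946 and 7.75 to 10.3 CPM in YFPpos SGC0649 libraries. Among 8 tested imprinted genes Cdkn1c was higher and Igf2r lower in YFPpos SGC0946 cells; Tubb3 and Cdkn1c are members, chosen on these values.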
